A study of Arabidopsis thaliana with 29 samples.

Results

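The data described here are the transcript levels of 9 genes of the NAC family of transcription factors in leaves of Arabidopsis thaliana: RD26, NAC019, NAC055, NAP, NAC092 (also called ORE1), ATAF1, ATAF2, NAC102 and NAC032. They were taken by gene identifier from a table of 33559 genes, in which 104 further genes were annotated as NAC genes, and all 9 reached the minimum level for testing. Wild-type Col-0 plants, grown in soil for 3 weeks, were sprayed with 10 μM AMF4, AMF1β or abscisic acid (ABA), or with the solvent DMSO, and leaves were sampled after 6, 24 or 72 h. AMF4 and AMF1β are synthetic agonists of the ABA receptors, both made from the agonist AM1 by adding fluorine to its benzyl ring, and they differ in how many fluorine atoms that ring carries. The 12 compound-by-time groups held 29 libraries: 3 in each group at 6 h, 3 in each at 24 h except for 2 with AMF4, and at 72 h 2 with AMF4, 2 with AMF1β, 1 with ABA and 1 with DMSO. All groups share the genotype, and no ABA-deficient or receptor-deficient plants were among them.

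NAC proteins bind DNA through a conserved N-terminal domain and regulate transcription through a variable C-terminal region. ABA released in drying or ageing leaves is bound by PYR/PYL/RCAR receptors, which inhibit PP2C phosphatases and so free SnRK2 kinases to activate bZIP factors of the ABF group. ABFs bind the ABA-responsive element, whose core is ACGTG. RD26, NAC019 and NAC055 are close relatives that respond to dehydration, salt, ABA and jasmonate. NAP and NAC092 drive leaf senescence: NAP activates the phosphatase gene SAG113 and the ABA biosynthesis gene AAO3, and NAC092 acts on nuclease and chlorophyll breakdown genes and is itself silenced in young leaves by the microRNA miR164. ATAF1, ATAF2, NAC102 and NAC032 form the ATAF group, known from responses to drought, wounding, pathogens, low oxygen and, for ATAF1 and NAC032, senescence.

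Each of the 9 genes has 3 exons and stands at its own place in the genome, given here by the RefSeq annotation of TAIR10.1. RD26 (AT4G27410) is at chr4:13707192-13709170, NAC019 (AT1G52890) at chr1:19696923-19698482 and NAC055 (AT3G15500) at chr3:5234457-5236196. NAP (AT1G69490) is at chr1:26122080-26123514 and NAC092 (AT5G39610) at chr5:15858398-15859911. ATAF1 (AT1G01720) is at chr1:267993-269819, ATAF2 (AT5G08790) at chr5:2858849-2860558, NAC102 (AT5G63790) at chr5:25526509-25528281 and NAC032 (AT1G77450) at chr1:29099839-29101759. The promoters of RD26, NAC019, NAP and NAC032 are shown because these genes were higher than in DMSO leaves at 6 h with all 3 compounds and because, of the 9 promoters, these 4 hold the ACGTG core. Each run is the 300 bases before the annotated gene start, read 5′ to 3′ on the gene's strand, with every ACGTG on either strand in capitals (CACGT marks the core on the other strand, and CACGTG, the G-box, holds the core on both strands). RD26 lies on the minus strand (chr4:13709171-13709470), NAC019 on the minus strand (chr1:19698483-19698782), NAP on the plus strand (chr1:26121780-26122079) and NAC032 on the plus strand (chr1:29099539-29099838).
RD26: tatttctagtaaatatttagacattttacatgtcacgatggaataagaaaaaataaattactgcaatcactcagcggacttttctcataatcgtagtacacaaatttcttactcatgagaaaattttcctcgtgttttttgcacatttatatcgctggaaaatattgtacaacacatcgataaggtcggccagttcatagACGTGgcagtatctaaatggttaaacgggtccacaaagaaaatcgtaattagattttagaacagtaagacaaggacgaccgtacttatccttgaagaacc
NAC019: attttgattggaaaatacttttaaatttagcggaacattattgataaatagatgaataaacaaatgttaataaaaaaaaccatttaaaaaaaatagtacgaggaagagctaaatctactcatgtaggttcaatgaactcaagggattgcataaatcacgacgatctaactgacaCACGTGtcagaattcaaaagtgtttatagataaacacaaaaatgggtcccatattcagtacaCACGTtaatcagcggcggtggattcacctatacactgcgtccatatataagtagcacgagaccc
NAP: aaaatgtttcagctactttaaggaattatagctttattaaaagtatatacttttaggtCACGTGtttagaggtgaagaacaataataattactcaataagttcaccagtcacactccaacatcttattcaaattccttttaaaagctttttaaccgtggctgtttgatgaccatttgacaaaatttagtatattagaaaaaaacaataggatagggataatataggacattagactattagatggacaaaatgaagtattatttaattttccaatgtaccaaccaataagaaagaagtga
NAC032: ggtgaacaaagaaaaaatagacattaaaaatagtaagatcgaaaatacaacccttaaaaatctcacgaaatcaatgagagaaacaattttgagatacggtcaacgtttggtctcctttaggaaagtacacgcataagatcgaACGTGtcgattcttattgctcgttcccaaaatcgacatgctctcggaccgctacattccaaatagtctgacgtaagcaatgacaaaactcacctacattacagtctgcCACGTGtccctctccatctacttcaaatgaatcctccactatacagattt
The core was found once in RD26, 3 times in NAC019, 2 times in NAP and 3 times in NAC032, counting a G-box on both strands. It was not found in these windows of NAC055, NAC092, ATAF1, ATAF2 and NAC102, and a window of this length leaves more distant sequence unread. Of 27443 gene windows of the same length, 25.6% held the core at least once and 9.94% at least 2 times. The G-box itself was in 3 of the 9 windows (NAC019, NAP and NAC032), against 7.09% of all windows. CATGTG, a site bound by NAC and MYC factors, was in none of the 9 windows and in 13.1% of all, and TTGAC, the core of the W-box, was in 5 of 9 and in 50.4% of all. TGACG, the site of TGA factors, was in NAC102 and NAC032 and in 21.3% of all windows. CCGAC, the core of the dehydration-responsive element, was in RD26 and in 13.9% of all. GCCGCC was in none of the 9 and in 2.26% of all. These matches are descriptions of the letters in each window.

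NAC092 is the member with a microRNA site, and the sequences are shown so that its pairing can be read. The mature miR164a (from chr2:19520770-19520790, plus strand) and miR164c (chr5:9852684-9852704, plus strand) are given with the seed, bases 2 to 8, in capitals, and the miR164b sequence (chr5:287586-287606, plus strand) is identical to that of miR164a. The sites in the coding sequence of NAC092 (chr5:15858797-15858817, minus strand) and of NAC1, another NAC gene (chr1:20947142-20947162, minus strand), are given with the positions that are not complementary to miR164a in capitals.
miR164a: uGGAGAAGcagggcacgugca
miR164c: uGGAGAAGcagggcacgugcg
NAC092 site: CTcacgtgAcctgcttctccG
NAC1 site: AgcacgtAccctgcttctcca
The NAC092 site starts at base 632 of 858 coding bases, in the last of 3 coding exons, and has 4 positions that are not complementary, of which 1 is a G:U wobble, against 2 and no wobble in the NAC1 site. The 3 miR164 precursor genes were listed at 0 in all 29 libraries. Mature microRNAs are not measured by this kind of library, so miR164 itself was not analysed here.

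Transcript levels were deposited as FPKM, fragments per kilobase of transcript scaled to the mapped fragments of each library, which are comparable between genes of different length. Differences below are log2 fold changes of FPKM + 1, which understate the change of genes near 0, and values after ± are standard errors from limma. A gene was called when its Benjamini-Hochberg adjusted p was below 0.05 and its fold change on that scale above 2 or below 0.5, and 18521 genes with at least 1 FPKM in at least 2 libraries were tested. NAC055 reached 1 FPKM only in the 9 treated libraries of 6 h and in 1 AMF1β library of 24 h, so it entered the test through groups in which it was high. Libraries of 1 group are separate samples by their labels, and the p-values measure the spread between them, which may be partly technical. The study's methods describe biological replicates in duplicate. The labels list up to 3 libraries a group, and where the additional libraries came from is not given in the sources used here. In bulk leaves a change in the number of cells that express a gene and a change in RNA per cell cannot be told apart.

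FPKM summed to between 763464 and 1140081 per library. The leaf mesophyll markers LHCB1.1, RBCS1A and CA1 were high in every library, with sums of 7088 to 22419 FPKM with AMF4, 16035 to 25403 with AMF1β and 16109 to 23047 with ABA at 6 h, against 24989 to 36486 with DMSO, and 2 of the 3 were called lower with AMF4 at that time. The 4 guard cell markers FAMA, KAT1, SLAC1 and MYB60 summed to 20.2 to 34.8 FPKM with AMF4, 22.9 to 30.9 with AMF1β and 35.2 to 44.9 with ABA at 6 h, against 31.3 to 33.7 with DMSO, and 1 of the 4, MYB60, was called lower with AMF1β and with ABA. Root markers summed to at most 6.18 FPKM, in an AMF4 library of 6 h, and flower and meristem markers to at most 1.86 FPKM. In AMF4 replicate 1 of 6 h, 21835 genes reached 1 FPKM, against 16265 to 16872 in the other libraries. The DMSO libraries of 6 h did not match each other in LHY, a clock gene that peaks around dawn: LHY had 27.9, 10.6 and 0.436 FPKM in DMSO replicates 1, 2 and 3, while the treated libraries of 6 h lay between 0.433 and 0.983 FPKM. LHY was the only one of 9 core clock genes called at 6 h, lower with each compound (log2 fold change −2.15 with AMF4, −2.25 with AMF1β and −2.32 with ABA). The 6 h comparisons were therefore also made with DMSO replicate 3 as the only control of that time, a choice made after the data were seen, and the part of the time of day in these results was not tested.

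The members differed widely in level. Over the 29 libraries NAP averaged 66.1 FPKM, the 2nd highest of the 113 NAC genes, followed by NAC019 at 46.9 FPKM, NAC102 at 43.7 FPKM, ATAF1 at 34.1 FPKM, RD26 at 33.7 FPKM, NAC032 at 28.3 FPKM and ATAF2 at 27.5 FPKM. NAC092 averaged 9.84 FPKM, and NAC055 averaged 0.763 FPKM although NAC019, its closest relative, was among the most abundant. No pair of members shared a run of 49 bases in their transcripts, the longest shared run among the 36 pairs being 32 bases, between NAC055 and ATAF2. Genes on the opposite strand overlap ATAF1 (AT1G01725 by 28 bases and a long noncoding RNA, AT1G04043, by 344 bases), ATAF2 (AT5G08780 by 158 bases) and NAC102 (AT5G63780 by 85 bases). Whether counting used the strand is not given in the sources used here, so the levels of these 3 members may hold reads of their partners.

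**Figure D1:**
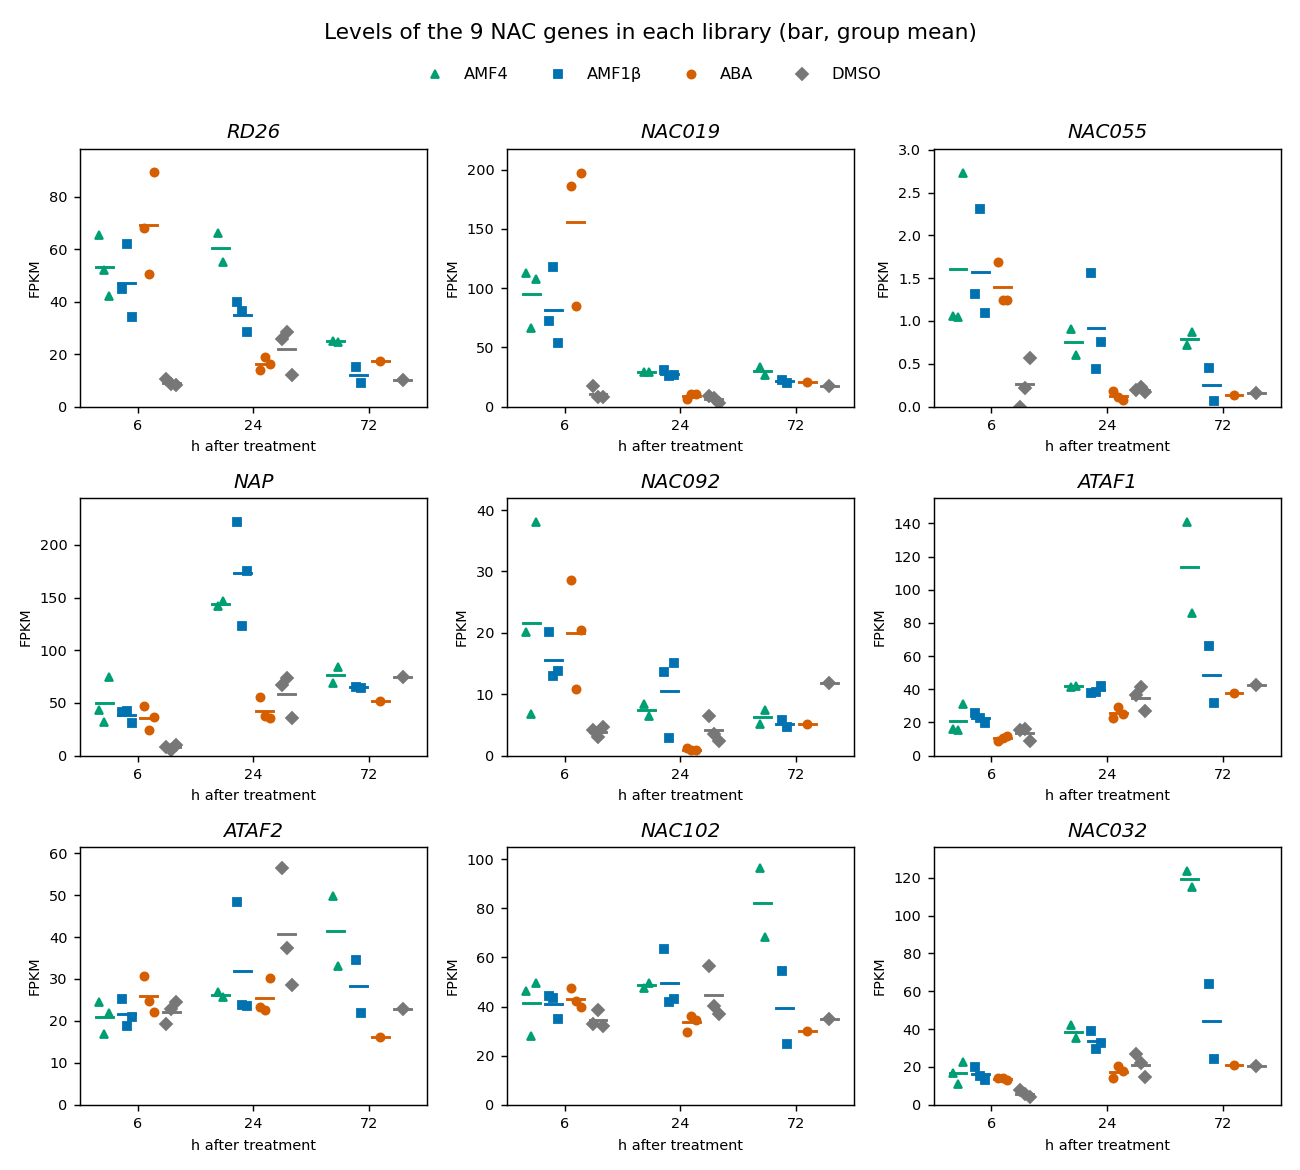
FPKM of the 9 NAC genes in each of the 29 libraries, on a linear axis from 0 for each gene, by hours after treatment and compound, with a point for each library and a bar at each group mean. At 6 h the treated libraries of RD26 (34.2 to 89.4 FPKM) lie above all DMSO libraries (8.05 to 10.6 FPKM), while those of ATAF2 do not.

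The first question is which of these genes respond to the compounds within 6 h. RD26, NAC019, NAP, NAC092 and NAC032 were higher with each of the 3 compounds, NAC055 was called higher with AMF4 and AMF1β, and ATAF1, ATAF2 and NAC102 were not called with any. Thus 6 of 9 members were called higher with AMF4, 6 with AMF1β and 5 with ABA, against 4.21% of all tested genes called higher with AMF4, 2.69% with AMF1β and 3.71% with ABA. No member was called lower, beside 4.35%, 3.28% and 3.24% of all genes in the same order. Without NAC055, which entered the test through groups in which it was high, the counts were 5 of 8 with each compound. The members were chosen with earlier results of these data known, which limits what their counts show beside all genes. The median log2 fold change of the 9 members was 1.36 with AMF4, 1.32 with AMF1β and 1.13 with ABA, and that of all tested genes 0.09, 0.05 and 0.01.

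RD26, a NAC factor first isolated as a dehydration-responsive gene, had 65.4, 51.9 and 42.2 FPKM with AMF4, 44.8, 61.9 and 34.2 with AMF1β and 68.3, 50.5 and 89.4 with ABA, against 10.6, 8.53 and 8.05 with DMSO. Every treated library was above every DMSO library. Its log2 fold change was 2.42 ± 0.28 with AMF4 (adjusted p = 6.08e-06), 2.22 ± 0.28 with AMF1β (adjusted p = 2.93e-05) and 2.78 ± 0.28 with ABA (adjusted p = 1.24e-06). The level of NAC019 was 112, 66.4 and 108 FPKM with AMF4, 72.5, 118 and 53.6 with AMF1β and 186, 84.8 and 197 with ABA, against 17.3, 7.69 and 7.83 with DMSO. It had the largest change of the 9 genes with each compound, and the 3 groups of treated libraries overlapped each other but not the DMSO group, in which replicate 1 was highest. The log2 fold change of NAC019 was 3.07 ± 0.36 with AMF4 (adjusted p = 6.62e-06), 2.80 ± 0.36 with AMF1β (adjusted p = 3.38e-05) and 3.72 ± 0.36 with ABA (adjusted p = 6.5e-07). For NAC055, which acts with NAC019 in jasmonate and defence signalling, the libraries had 1.06, 1.05 and 2.73 FPKM with AMF4, 1.31, 2.31 and 1.09 with AMF1β and 1.69, 1.25 and 1.24 with ABA, against 0, 0.217 and 0.571 with DMSO. These levels were low, with 1 DMSO library listed at 0, and no treated library fell to the DMSO range. NAC055 was tested only because libraries of these treated groups reached 1 FPKM, so this order and the calls below are description and not support. The log2 fold change was 1.01 ± 0.24 with AMF4 (adjusted p = 0.00394), 1.02 ± 0.24 with AMF1β (adjusted p = 0.00533) and 0.94 ± 0.24 with ABA (adjusted p = 0.00835), of which that with ABA was just under 2-fold and so not called. The NAC055 calls sat close to the 2-fold limit and moved with the pseudocount: on the log2(FPKM + 0.1) scale the changes were 2.49 with AMF4, 2.52 with AMF1β and 2.42 with ABA (adjusted p = 0.00559), and all 3 were called. On the FPKM + 1 scale the scaling of libraries and single libraries also decided them. With AMF4 the change fell below the limit under median-of-ratios scaling (0.99) and quantile normalization (0.79). With AMF1β it did so only under quantile normalization (0.99). With AMF4 the change fell below the limit without DMSO replicate 1 (0.86) or 2 (1.00, under the limit before rounding) or AMF4 replicate 3 (0.73). With AMF1β it fell below the limit without DMSO replicate 1 (0.87) or AMF1β replicate 2 (0.82), and with ABA it passed the limit without DMSO replicate 3 (1.11).

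Of the senescence regulators, NAP had 42.9, 31.8 and 75.0 FPKM with AMF4, 41.8, 42.8 and 30.9 with AMF1β and 46.8, 23.8 and 36.5 with ABA, against 7.93, 5.46 and 10.5 with DMSO. The lowest treated library, with ABA, was still above the highest DMSO library. Its log2 fold change was 2.45 ± 0.32 with AMF4 (adjusted p = 1.78e-05), 2.16 ± 0.32 with AMF1β (adjusted p = 9.73e-05) and 2.02 ± 0.32 with ABA (adjusted p = 0.000141). NAC092, the regulator of age-dependent cell death, had 20.2, 6.71 and 38.1 FPKM with AMF4, 20.2, 13.0 and 13.7 with AMF1β and 28.6, 10.9 and 20.5 with ABA, against 4.21, 2.95 and 4.60 with DMSO. The groups did not overlap, but replicates spread widely, from 6.71 to 38.1 FPKM with AMF4. The log2 fold change of NAC092 was 1.93 ± 0.50 with AMF4 (adjusted p = 0.00676), 1.75 ± 0.50 with AMF1β (adjusted p = 0.0172) and 2.01 ± 0.50 with ABA (adjusted p = 0.00656), and that with AMF1β lost its call without DMSO replicate 2 (log2 fold change 1.60, adjusted p = 0.0641) or AMF1β replicate 1 (1.56, adjusted p = 0.0785).

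Among the ATAF group, only NAC032, a factor linked to oxidative stress and senescence, passed the test. NAC032 had 16.7, 11.1 and 22.7 FPKM with AMF4, 19.9, 15.0 and 13.1 with AMF1β and 14.1, 13.9 and 13.1 with ABA, against 7.88, 5.78 and 4.0 with DMSO. All treated libraries were above all DMSO libraries. Its log2 fold change was 1.36 ± 0.29 with AMF4 (adjusted p = 0.00195), 1.32 ± 0.29 with AMF1β (adjusted p = 0.00347) and 1.13 ± 0.29 with ABA (adjusted p = 0.00918), with the call for ABA lost without DMSO replicate 3 (log2 fold change 0.92, adjusted p = 0.0534). ATAF1 had 16.0, 15.2 and 31.2 FPKM with AMF4, 26.0, 22.5 and 19.7 with AMF1β and 8.6, 10.4 and 12 with ABA, against 15.6, 15.8 and 8.86 with DMSO, so that ABA libraries lay within or just below the DMSO range and the AMF1β libraries above it. Its log2 fold change was 0.56 ± 0.28 with AMF4 (adjusted p = 0.132), 0.75 ± 0.28 with AMF1β (adjusted p = 0.0623) and −0.31 ± 0.28 with ABA (adjusted p = 0.477). ATAF2, which is induced by wounding, had 24.5, 16.8 and 21.8 FPKM with AMF4, 25.2, 18.7 and 20.8 with AMF1β and 30.8, 24.7 and 22 with ABA, against 19.2, 22.8 and 24.4 with DMSO, and its log2 fold change was between −0.08 and 0.21. NAC102, known from the response of germinating seeds to low oxygen, had 46.4, 28 and 49.6 FPKM with AMF4, 44.3, 43.5 and 34.9 with AMF1β and 47.4, 42.1 and 39.6 with ABA, against 32.7, 38.6 and 31.9 with DMSO, with log2 fold changes between 0.22 and 0.32. The treated and DMSO ranges of ATAF2 overlapped with every compound, and those of NAC102 with AMF4 and AMF1β but not with ABA.

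With DMSO replicate 3, whose LHY was in the range of the treated libraries, as the only 6 h control, some members lost their calls. Fewer of the 27 member-by-compound tests were called than the 17 with all 3 DMSO libraries. The share of all genes called in that fit was not counted. A control of 1 library has no spread of its own, and the fit takes it from the other groups. NAC092 was not called with AMF4 (log2 fold change 1.73, adjusted p = 0.129), AMF1β (1.54, adjusted p = 0.196) and ABA (1.81, adjusted p = 0.135), changes close to those with all DMSO libraries. NAC055 was not called with AMF4 (0.67, adjusted p = 0.196) and AMF1β (0.68, adjusted p = 0.217), and ATAF1 gained one with AMF1β (log2 fold change 1.26, adjusted p = 0.0413). RD26, NAC019, NAP and NAC032 were called with all 3 compounds here too, with log2 fold changes of 1.56 to 4.06. The mesophyll and guard cell marker sums at 6 h stand beside these results, and their part in them was not tested.

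**Figure D2:**
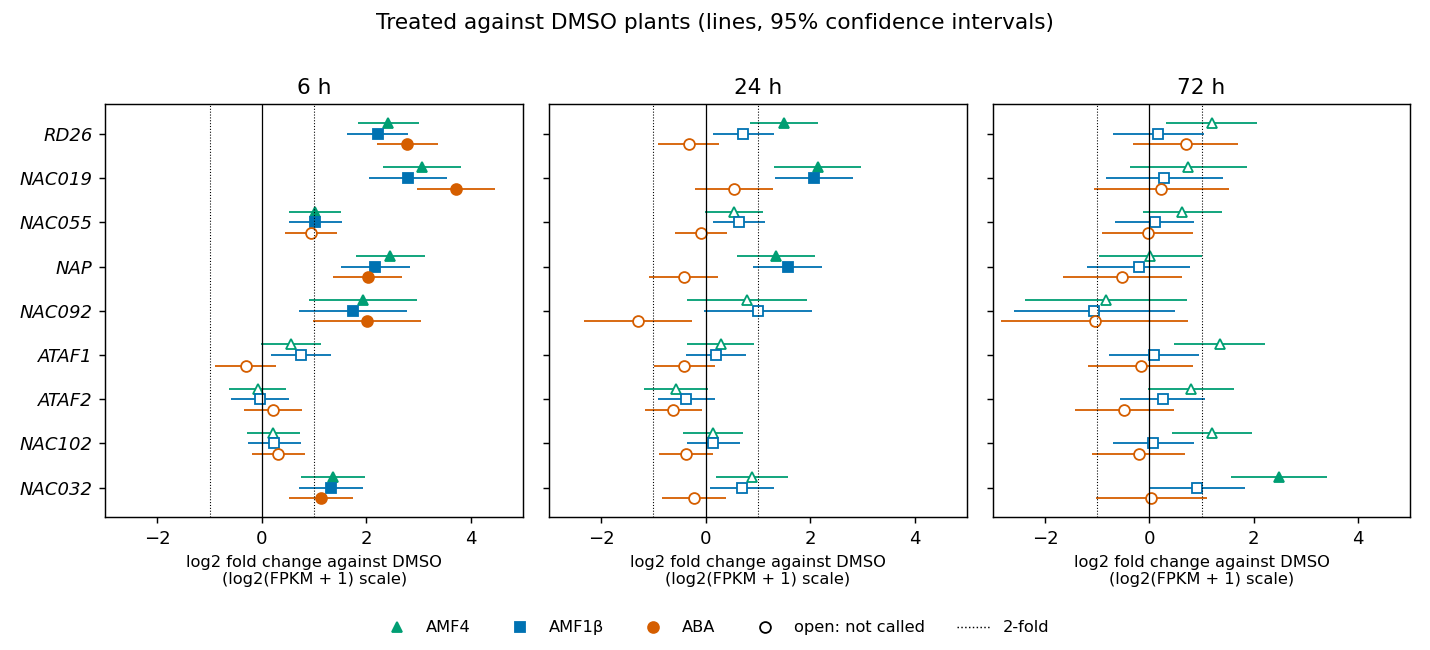
Log2 fold change (FPKM + 1) of the 9 NAC genes against DMSO at 6, 24 and 72 h with AMF4, AMF1β and ABA, with 95% confidence intervals from limma and filled points for calls. At 6 h 17 of 27 points are filled, at 24 h 5 and at 72 h 1. Those of 6 h include NAC055 with AMF4 and AMF1β, a gene that entered the test through groups in which it was high.

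The next question is which changes were still present at 24 h. RD26 with AMF4, and NAC019 and NAP with both AMF4 and AMF1β, were called higher, and none of the 9 was called with ABA. This was 3 of 9 with AMF4, 2 with AMF1β and 0 with ABA, against 2.12%, 1.05% and 0.232% of all genes called higher. At an unadjusted limma p below 0.05 the numbers were 4, 5 and 2, beside 4163, 4084 and 2582 of the 18521 genes tested. RD26 had 66.1 and 55 FPKM with AMF4, 39.9, 36.6 and 28.3 with AMF1β and 13.8, 18.9 and 16.2 with ABA, against 25.6, 28.4 and 11.9 with DMSO. The AMF4 libraries were above the DMSO range, in which replicate 3 was lowest, the lowest AMF1β library was level with the highest DMSO library, and the ABA libraries lay within the range. The log2 fold change of RD26 was 1.50 ± 0.31 with AMF4 (adjusted p = 0.00427), 0.72 ± 0.28 with AMF1β (adjusted p = 0.135) and −0.33 ± 0.28 with ABA (adjusted p = 0.659), and the AMF4 call was lost without AMF4 replicate 1 (adjusted p = 0.0744).

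NAC019 at 24 h had 29.5 and 29.1 FPKM with AMF4, 30.6, 26.0 and 26.9 with AMF1β and 6.49, 10.6 and 10.3 with ABA, against 9.04, 6.80 and 3.13 with DMSO. Every AMF4 and AMF1β library was above every DMSO and ABA library, and the ABA and DMSO libraries overlapped. Its log2 fold change was 2.14 ± 0.40 with AMF4 (adjusted p = 0.00189), 2.07 ± 0.36 with AMF1β (adjusted p = 0.00247) and 0.54 ± 0.36 with ABA (adjusted p = 0.544). NAP, which was far higher at 24 h than at 6 h in all groups but that of ABA, had 142 and 146 FPKM with AMF4, 222, 123 and 175 with AMF1β and 55.5, 37.2 and 35.2 with ABA, against 67.3, 73.5 and 35.5 with DMSO. The AMF libraries were all above the DMSO libraries, and ABA replicates 2 and 3 were near the lowest DMSO library. The log2 fold change of NAP was 1.35 ± 0.35 with AMF4 (adjusted p = 0.0201), 1.57 ± 0.32 with AMF1β (adjusted p = 0.00816) and −0.42 ± 0.32 with ABA (adjusted p = 0.608). Its call with AMF4 was lost without DMSO replicate 3 (adjusted p = 0.0896), AMF4 replicate 1 (adjusted p = 0.122) or AMF4 replicate 2 (adjusted p = 0.146), and that with AMF1β without AMF1β replicate 1 (adjusted p = 0.0528).

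The other 6 members were not called at 24 h. NAC055 had 0.910 and 0.599 FPKM with AMF4, 1.56, 0.444 and 0.756 with AMF1β and 0.187, 0.113 and 0.0737 with ABA, against 0.196, 0.233 and 0.164 with DMSO, with log2 fold changes of 0.55 ± 0.27 with AMF4 and 0.64 ± 0.24 with AMF1β. NAC092 had 8.44 and 6.52 FPKM with AMF4, 13.7, 2.92 and 15.0 with AMF1β and 1.21, 0.833 and 0.906 with ABA, against 6.41, 3.59 and 2.37 with DMSO. The ABA libraries were all below the DMSO libraries, with a log2 fold change of −1.30 ± 0.50 that missed the threshold (adjusted p = 0.229). AMF1β replicate 2 stood apart from the other AMF1β libraries, and without it the change with AMF1β was called (1.66, adjusted p = 0.0463). NAC032 had 41.9 and 35.1 FPKM with AMF4, 39.1, 29.3 and 32.8 with AMF1β and 13.8, 20.5 and 18 with ABA, against 26.6, 21.9 and 14.4 with DMSO, and its change of 0.88 ± 0.33 with AMF4 missed the threshold (adjusted p = 0.102), as did that of 0.69 ± 0.29 with AMF1β (adjusted p = 0.17), although neither group overlapped DMSO. ATAF1 had 41.7 and 42.2 FPKM with AMF4, 37.9, 38.1 and 42.1 with AMF1β and 22.9, 29.2 and 24.9 with ABA, against 36.3, 41.2 and 26.7 with DMSO. The AMF4 libraries were just above the DMSO range, the AMF1β libraries in its upper part or just above it, and the ABA libraries near or below its bottom. ATAF2 had 26.8 and 25.7 FPKM with AMF4, 48.4, 23.9 and 23.5 with AMF1β and 23.3, 22.6 and 30.2 with ABA, against 56.5, 37.3 and 28.6 with DMSO, and NAC102 had 47.5 and 49.7 FPKM with AMF4, 63.3, 42.0 and 43.0 with AMF1β and 29.6, 36.3 and 34.6 with ABA, against 56.5, 40.2 and 36.8 with DMSO. Both were spread in DMSO, where replicate 1 was highest, and their log2 fold changes lay between −0.62 and −0.37 for ATAF2 and between −0.38 and 0.15 for NAC102. The mesophyll marker sums at 24 h were 17192 to 23842 FPKM with AMF4, 10990 to 27325 with AMF1β and 25691 to 28052 with ABA, against 23521 to 40256 with DMSO. Those of the 4 guard cell markers were 19.9 to 20.3 FPKM with AMF4, 22.5 to 25.5 with AMF1β and 28.3 to 36.6 with ABA, against 26.9 to 54.5 with DMSO, so that both AMF groups lay below the DMSO and ABA groups. MYB60, 1 of the 4, was called lower with AMF4 and with AMF1β, against both DMSO and ABA, and the part of these markers in the results was not tested.

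At 72 h, DMSO and ABA had 1 library each, which the fit assumed to vary like the other groups. NAC032 with AMF4 was the only member called, 1 of 9 against 1.12% of all genes called higher with AMF4. With AMF1β and ABA the members called higher were 0 and 0, beside 0.0108% and 0% of all genes. At an unadjusted limma p below 0.05 the members numbered 4 with AMF4, 0 with AMF1β and 0 with ABA. Of the 18521 genes tested, 2592, 764 and 338 were below it in the same order. NAC032 had 124 and 115 FPKM with AMF4, 64.0 and 24.3 with AMF1β and 21.2 with ABA, against 20.6 with DMSO. The AMF4 libraries were the highest of all 29, the AMF1β libraries differed from each other by more than 2-fold, and the ABA library was close to the DMSO library. The log2 fold change of NAC032 was 2.48 ± 0.44 with AMF4 (adjusted p = 0.00735), 0.91 ± 0.44 with AMF1β (adjusted p = 1) and 0.04 ± 0.51 with ABA (adjusted p = 1). The AMF4 call was lost without AMF4 replicate 1 (2.43, adjusted p = 0.0502) and when only the 6 libraries of 72 h were fitted (adjusted p = 0.141).

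The rest of the ATAF group also had its highest means in AMF4 leaves at 72 h, but did not pass the threshold. ATAF1 had 141 and 85.9 FPKM with AMF4, 66.0 and 31.5 with AMF1β and 38 with ABA, against 42.8 with DMSO, with a change of 1.34 ± 0.42 with AMF4 (adjusted p = 0.109). NAC102 had 96.3 and 68.4 FPKM with AMF4, 54.3 and 24.7 with AMF1β and 30.0 with ABA, against 34.7 with DMSO, with a change of 1.20 ± 0.37 with AMF4 (adjusted p = 0.106). ATAF2 had 49.9 and 33.0 FPKM with AMF4, 34.6 and 21.9 with AMF1β and 16.2 with ABA, against 23.0 with DMSO, with a change of 0.80 ± 0.39 with AMF4 (adjusted p = 0.376). In all 3 genes both AMF4 libraries were above the single DMSO library, an order that 1 control library leaves weak. The share of all genes with that order, or with their highest mean with AMF4 at 72 h, was not counted. Of the stress group, RD26 had 25 and 24.7 FPKM with AMF4, 15.3 and 8.92 with AMF1β and 17.3 with ABA, against 10.3 with DMSO, a change of 1.19 ± 0.42 with AMF4 (adjusted p = 0.175). NAC019 had 33.0 and 26.6 FPKM with AMF4, 22.5 and 20.2 with AMF1β and 20.4 with ABA, against 17.3 with DMSO, and NAC055 had 0.715 and 0.870 FPKM with AMF4, 0.453 and 0.0597 with AMF1β and 0.133 with ABA, against 0.156 with DMSO. In RD26, NAC019 and NAC055 the AMF4 libraries were the highest of their time, and the share of all genes with this order was not counted either. The senescence regulators did not follow: NAP had 68.6 and 84.0 FPKM with AMF4, 65.1 and 64.6 with AMF1β and 52.1 with ABA, against 75.0 with DMSO, and NAC092 had 5.18 and 7.43 FPKM with AMF4, 5.77 and 4.62 with AMF1β and 5.19 with ABA, against 11.8 with DMSO, so that DMSO was within or above the treated range. The NAC092 changes were −0.83 ± 0.74 with AMF4, −1.05 ± 0.74 with AMF1β and −1.05 ± 0.86 with ABA, none of them called. The guard cell markers at 72 h summed to 21.5 to 23.0 FPKM with AMF4, 33.1 to 34.4 with AMF1β and 33.4 with ABA, against 32.2 with DMSO, and their part was not tested.

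The compounds were then compared with each other at the same dose and time, in 27 tests at each time. At 6 h none of the 9 genes was called between any pair of compounds, beside 0.508% of all genes called between AMF4 and ABA, 0.367% between AMF1β and ABA and 0% between AMF4 and AMF1β. At an unadjusted limma p below 0.05 the members numbered 1, 2 and 0, beside 3780, 2075 and 1357 of the 18521 genes tested. The ATAF1 level was higher by 0.88 ± 0.28 with AMF4 than with ABA (adjusted p = 0.0895) and by 1.06 ± 0.28 with AMF1β than with ABA (adjusted p = 0.0892). NAC019 was the other such member, at −0.91 ± 0.36 with AMF1β relative to ABA (95% confidence interval −1.66 to −0.17, adjusted p = 0.307). The ATAF1 difference between AMF1β and ABA was called without AMF4 replicate 3 of 6 h (adjusted p = 0.0458).

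At 24 h, RD26, NAC019, NAP and NAC092 were called higher with AMF4 than with ABA and also with AMF1β than with ABA, 4 of 9 in each comparison, against 1.38% and 1.3% of all genes called higher. The AMF libraries of each of these 4 genes were all above the ABA libraries. The same order was seen in NAC055, ATAF1, NAC102 and NAC032, which were not called, but not in ATAF2. The share of all genes with this order was not counted. The difference of RD26 was 1.83 ± 0.31 between AMF4 and ABA (adjusted p = 0.00236) and 1.05 ± 0.28 between AMF1β and ABA (adjusted p = 0.0442). That of NAC019 was 1.60 ± 0.40 (adjusted p = 0.0285) and 1.53 ± 0.36 (adjusted p = 0.0238) in the same order. For NAP it was 1.76 ± 0.35 between AMF4 and ABA (adjusted p = 0.00716) and 1.99 ± 0.32 between AMF1β and ABA (adjusted p = 0.00234). NAC092, at about 1 FPKM in ABA leaves, had a difference of 2.09 ± 0.55 for AMF4 over ABA (adjusted p = 0.0388) and of 2.30 ± 0.50 for AMF1β over ABA (adjusted p = 0.0147). NAC032 had differences of 1.11 ± 0.33 (adjusted p = 0.0653) and 0.92 ± 0.29 (adjusted p = 0.0938), which missed the threshold although no libraries overlapped.

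Several of these calls were lost when 1 library was left out, although the differences moved little. AMF4 at 24 h has 2 libraries, and a single remaining one is assumed to vary like the other groups. With AMF4 against ABA, RD26 was not called without AMF4 replicate 1 (difference 1.70, adjusted p = 0.0646) and NAP not without AMF4 replicate 1 (1.79, adjusted p = 0.0963) or 2 (1.74, adjusted p = 0.0941). NAC019 was not called without AMF4 replicate 1 or 2 or ABA replicate 1 or 3 (differences 1.59, 1.61, 1.40 and 1.70, adjusted p = 0.214, 0.194, 0.0941 and 0.0639), nor NAC092 without AMF4 replicate 1 or 2 or ABA replicate 1, 2 or 3 (differences of 1.93 to 2.26, adjusted p = 0.301, 0.184, 0.0661, 0.0999 and 0.115). With AMF1β against ABA, NAC019 was not called without AMF1β replicate 1 or 3 or ABA replicate 1, 2 or 3 (differences of 1.32 to 1.64, adjusted p = 0.13, 0.0533, 0.0826, 0.0529 and 0.0752), nor NAC092 without AMF1β replicate 1 or 3 or ABA replicate 2 or 3 (differences of 1.94 to 2.27, adjusted p = 0.119, 0.0667, 0.0572 and 0.0722). The RD26 call between AMF1β and ABA was lost under 16 of 40 alternatives, among them without any single AMF1β or ABA library of 24 h, with the highest adjusted p at 0.22. The NAP difference between AMF1β and ABA was called under every one of 40 alternatives.

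At 72 h NAC032 was called higher with AMF4 than with ABA, 1 of 9 against 0.486% of all genes, at 2.44 ± 0.44 (adjusted p = 0.013, and 0.0941 without AMF4 replicate 1). The corresponding differences of ATAF1, NAC102 and ATAF2 were 1.51 ± 0.42 (adjusted p = 0.0903), 1.40 ± 0.37 (adjusted p = 0.0804) and 1.27 ± 0.39 (adjusted p = 0.13). That of NAC102 was called, at the same difference, without AMF1β replicate 1 (adjusted p = 0.0372) or 2 (adjusted p = 0.0371). No member was called between AMF1β and ABA at 72 h, where 0% of all genes were called higher. At an unadjusted limma p below 0.05 there were 0 members, beside 611 of the 18521 genes tested.

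AMF4 and AMF1β, which differ in the fluorine atoms of the benzyl ring, gave no call for any of the 9 genes at any time, beside 0% of all genes called higher at 24 h and 0.054% called in either direction at 72 h. An absent call does not show that the 2 compounds act alike, as the intervals show. At 6 h the differences lay between −0.19 and 0.29, the interval of RD26 being −0.39 to 0.78 and that of NAP −0.37 to 0.95. At 24 h RD26 was higher with AMF4 by 0.78 ± 0.31 (95% confidence interval 0.13 to 1.44, adjusted p = 0.677), and its AMF4 libraries did not overlap its AMF1β libraries, while the differences of the other 8 genes lay between −0.22 and 0.19. At 72 h all 9 differences were above 0, and 4 had an unadjusted limma p below 0.05, beside 2188 of the 18521 genes tested. The median of all tested genes was 0.0075, and the share of them above 0 was not counted. The 9 signs come from the same libraries and are not separate observations. NAC032 was higher with AMF4 by 1.57 ± 0.36 (0.82 to 2.32, adjusted p = 0.109), and ATAF1 by 1.25 ± 0.34 (0.55 to 1.96, adjusted p = 0.16). NAC102 was higher by 1.12 ± 0.30 (0.50 to 1.75, adjusted p = 0.159), and RD26 by 1.02 ± 0.34 (0.31 to 1.74, adjusted p = 0.239). AMF1β replicate 2 of 72 h was the lower of its pair in all 9 genes, and without AMF1β replicate 1 the differences of NAC032 (2.25, adjusted p = 0.00795), ATAF1 (1.77, adjusted p = 0.0439) and NAC102 (1.68, adjusted p = 0.0208) were called, with the spread of the lone AMF1β library taken from the other groups.

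**Figure D3:**
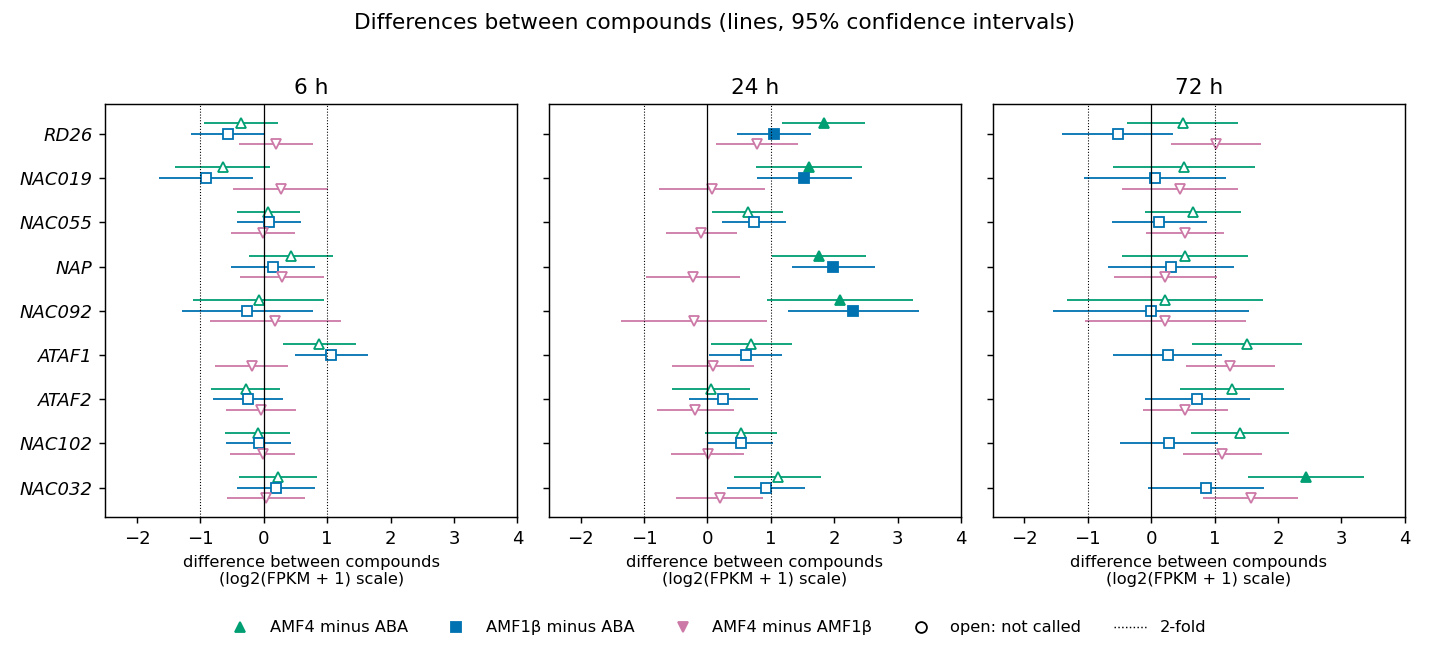
Differences in log2(FPKM + 1) between compounds at each time for the 9 NAC genes (AMF4 minus ABA, AMF1β minus ABA and AMF4 minus AMF1β), with 95% confidence intervals from limma and filled points for calls. The filled points are 8 at 24 h, all above 0 and all against ABA, and 1 at 72 h.

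Whether an effect changed between 6 and 24 h was tested as the difference of the 2 log2 fold changes. The effect of ABA against DMSO was lower at 24 h than at 6 h in RD26 (−3.11 ± 0.40, adjusted p = 0.000279) and NAC019 (−3.18 ± 0.51, adjusted p = 0.0012). The same held for NAP (−2.44 ± 0.45, adjusted p = 0.00302), NAC092 (−3.31 ± 0.70, adjusted p = 0.00639) and NAC032 (−1.36 ± 0.42, adjusted p = 0.0478). These were 5 of 9, against 2.99% of all genes called lower in this contrast, and the NAC032 call was lost under 26 of 39 alternatives, with adjusted p up to 0.119. With DMSO replicate 3 as the only 6 h control, NAC092 (−3.10) and NAC032 (−1.78) were not called. The calls of RD26, NAC019 and NAP held under all 39 alternatives. With AMF4 and AMF1β against DMSO none was called, beside 5.97% and 1.24% of all genes. At an unadjusted limma p below 0.05 there were 2 and 1, beside 4805 and 2684 of the 18521 genes tested. The RD26 change of −1.50 ± 0.40 with AMF1β (adjusted p = 0.0538) was the nearest to a call, and it was called without DMSO replicate 3 of 24 h (−1.87, adjusted p = 0.00488). Without that library the RD26 and NAP changes with AMF4 were called as well (−1.28, adjusted p = 0.0271, and −1.43, adjusted p = 0.046).

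The difference between AMF4 and ABA was greater at 24 h than at 6 h in RD26 (2.19 ± 0.42) and NAC019 (2.25 ± 0.54), 2 of 9 beside 1.32% of all genes. That between AMF1β and ABA was greater at 24 h in RD26 (1.61 ± 0.40), NAC019 (2.44 ± 0.51) and NAP (1.84 ± 0.45), 3 of 9 beside 0.956% of all genes. Between AMF4 and AMF1β none was called, beside 0% of all genes. None, 0 of 9, had an unadjusted limma p below 0.05, beside 1051 of the 18521 genes tested. From 24 to 72 h none of 54 such tests was called, beside 0% to 0.0918% of all genes. ABA against DMSO had 0 members at an unadjusted limma p below 0.05, beside 375 of the 18521 genes tested. Each other contrast had 3 to 4 members below it, beside 679 to 1689 genes. The DMSO and ABA groups of 72 h held 1 library each.

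The members also moved with time in DMSO leaves, the background of all these comparisons. At 24 h RD26, NAP, ATAF1 and NAC032 were called higher than at 6 h, 4 of 9 against 7.9% of all genes. At an unadjusted limma p below 0.05 the members numbered 5, beside 8655 of the 18521 genes tested. The 2 times fall at different hours of the day, and the DMSO libraries of 6 h did not match each other in LHY. The part of the time of day was not tested. NAP had 67.3, 73.5 and 35.5 FPKM at 24 h against 7.93, 5.46 and 10.5 FPKM at 6 h, a log2 fold change of 2.71 ± 0.32 (adjusted p = 1.13e-06), and that of NAC032 was 1.67 ± 0.29 (adjusted p = 0.000138). ATAF1 changed by 1.33 ± 0.28 (adjusted p = 0.000742) and RD26 by 1.11 ± 0.28 (adjusted p = 0.00357). The RD26 change fell below 2-fold without DMSO replicate 1 (0.96) or 2 (0.89) of 24 h. ATAF2 changed by 0.81 ± 0.26 (adjusted p = 0.0195), under 2-fold. Between 72 and 24 h in DMSO 0 members were called, beside 0.0162% of all genes. There 2 had an unadjusted limma p below 0.05, beside 1251 of the 18521 genes tested.

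Across the 12 group means the order of levels differed between the members. RD26 was highest with ABA at 6 h (69.4 FPKM) and lowest with DMSO at 6 h (9.06 FPKM), and 10 of its 11 neighbouring pairs of groups overlapped in their libraries. Only the step between AMF1β at 24 h and AMF4 at 72 h separated neighbours. NAC019 was also highest with ABA at 6 h (156 FPKM) and was lowest with DMSO at 24 h (6.32 FPKM), with 8 of 11 neighbours overlapping. NAC055 and NAC092 were highest with AMF4 at 6 h (1.61 and 21.6 FPKM) and lowest with ABA at 24 h (0.124 and 0.982 FPKM), 8 and 9 of 11 neighbours overlapping. NAP peaked with AMF1β at 24 h (173 FPKM) and was lowest with DMSO at 6 h (7.96 FPKM), and 8 of 11 neighbours overlapped. All 4 genes of the ATAF group were highest with AMF4 at 72 h, at 114 FPKM for ATAF1, 41.4 FPKM for ATAF2, 82.4 FPKM for NAC102 and 119 FPKM for NAC032. In ATAF1, NAC102 and NAC032 that group stood apart from the next, and in ATAF2 it did not (40.8 FPKM with DMSO at 24 h). The share of all genes highest in that group, which held 2 libraries, was not counted.

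The likeness of these profiles was described by Pearson's r over the 12 group means of log2(FPKM + 1), whose points share libraries, times and controls. The highest values among the 36 pairs of members were 0.90 for ATAF1 with NAC032 and 0.90 for NAC019 with NAC055, followed by 0.87 for RD26 with NAC055 and 0.85 for NAC019 with NAC092. RD26 and NAC019 had 0.77, ATAF2 and NAC102 0.76, and NAP and NAC032 0.73. Of the 36 pairs, 8 had values below 0, the lowest being −0.30 for NAC019 with ATAF1, −0.26 for NAC055 with ATAF1 and −0.26 for NAC019 with ATAF2, and each of the 8 joined a stress or senescence member with ATAF1, ATAF2 or NAC032. Outside the members, the 3 genes most like RD26 were AT4G03820 (0.97), AT4G02360 (0.97) and MYB96 (0.96), an ABA-responsive MYB factor that promotes cuticular wax. NAC019 was most like AT5G56190 (0.97), AT1G13990 (0.96) and AT1G02305 (0.96), and NAC055 most like EXL2 (0.97), J8 (0.96) and D2HGDH (0.96). For NAP they were AT2G41380 (0.97), AT1G21000 (0.96) and the BAG-domain cochaperone gene BAG3 (0.96). NAC092 had ELF4-L1 (0.95), AT1G26620 (0.94) and KCS20 (0.93), the last a condensing enzyme of very-long-chain fatty acids. ATAF1 was most like the auxin response repressor IAA16 (0.97), BBX28 (0.96) and AT1G22190 (0.96). NAC032 was most like AT5G61820 (0.97), the Rab GTPase gene ARA-2 (0.96) and OST1 (0.95), the SnRK2 kinase that ABA activates. ATAF2 and NAC102 had no partner as close. With ATAF2 the values were 0.87 for AT3G46080, 0.85 for AT2G39960 and 0.85 for AT1G15370. With NAC102 they were 0.92 for BT5, 0.90 for UGT73B3 and 0.88 for AT3G19520. These partners were picked as the highest of all tested genes, and the picking itself favours high values. Over the 29 libraries each r was lower, from 0.40 for AT2G39960 with ATAF2 to 0.94 for IAA16 with ATAF1. There KCS20 with NAC092 had 0.57 and AT3G19520 with NAC102 0.45.

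Genes known to act downstream of the members were followed in a list of 20, of which 19 were tested. At 6 h 9 were called higher with AMF4, 9 with AMF1β and 12 with ABA, and none lower, beside 4.21%, 2.69% and 3.71% of all genes called higher. The medians were 1.09, 1.00 and 1.78 in the same order, and those of all genes 0.09, 0.05 and 0.01. This list was chosen with earlier results of these data known, which limits what its counts show beside all genes. SAG113, the PP2C phosphatase gene activated by NAP in senescing leaves, had 88.7, 58.8 and 42.7 FPKM with AMF4, 26.5, 53.8 and 21.0 with AMF1β and 64.8, 56.8 and 107 with ABA at 6 h, against 7.31, 1.67 and 3.00 with DMSO. All treated libraries were above all DMSO libraries, and its log2 fold change was 3.79 ± 0.42 with AMF4 (adjusted p = 3.47e-06), 2.85 ± 0.42 with AMF1β (adjusted p = 9.44e-05) and 4.06 ± 0.42 with ABA (adjusted p = 1.41e-06). At 24 h SAG113 had 189.7 and 179 FPKM with AMF4, 75.1, 90.2 and 56.7 with AMF1β and 27.8, 56.0 and 29.7 with ABA, against 16.5, 14.3 and 7.95 with DMSO. It was called at 24 h with AMF4 (3.79 ± 0.46, adjusted p = 3.4e-05) and AMF1β (2.46 ± 0.42, adjusted p = 0.00238) as NAP was. It was also higher with AMF4 than with ABA at 24 h (2.33 ± 0.46, adjusted p = 0.00675). Its ABA libraries of 24 h, unlike those of NAP, were all above its DMSO libraries, although the change was not called. At 72 h SAG113 was called with AMF4 and NAP was not.

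VSP1 and VSP2, vegetative storage protein genes induced by jasmonate, and LKR, which encodes the first enzymes of lysine breakdown, had the other largest changes at 6 h. VSP2 ranged over 168 to 888 FPKM with AMF4, 173 to 1262 with AMF1β and 813 to 851 with ABA, against 2.84 to 51.6 with DMSO, a log2 fold change of 4.24 ± 0.85 with AMF4 (adjusted p = 0.00108), 4.40 ± 0.85 with AMF1β (adjusted p = 0.00119) and 5.62 ± 0.85 with ABA (adjusted p = 0.000102). VSP1 changed by 2.70 ± 0.82 with AMF4, 3.31 ± 0.82 with AMF1β and 3.89 ± 0.82 with ABA. LKR was lower with AMF4 (−1.80 ± 0.41, adjusted p = 0.0364) and AMF1β (−2.40 ± 0.41, adjusted p = 0.00565) than with ABA at 6 h and higher with AMF4 than with ABA at 24 h (2.02 ± 0.46, adjusted p = 0.0153). At 24 h 3 of the 19 were called higher and 1 lower with AMF4, 2 higher with AMF1β, and with ABA 1 lower and none higher. Of all genes at 24 h, 2.12% were called higher and 2.36% lower with AMF4, 1.05% and 0.794% with AMF1β and 0.232% and 0.491% with ABA. The genes called higher were SAG113 and LKR with both AMF compounds and, named here after its values were seen, the sugar transporter gene SAG29 with AMF4 (3.32 ± 0.70, adjusted p = 0.00493). ICS1, the salicylate biosynthesis gene repressed by NAC019, NAC055 and RD26, was the gene called lower (log2 fold change −1.43 with AMF4 and −1.28 with ABA), and it is named here after its values were seen. At 72 h 2 of the 19 were called higher with AMF4, beside 1.12% of all genes, SAG113 (2.87 ± 0.62, adjusted p = 0.023) and, also named after its values were seen, SAGT1, a salicylate glucosyltransferase gene (2.53 ± 0.56, adjusted p = 0.0261).

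**Figure D4:**
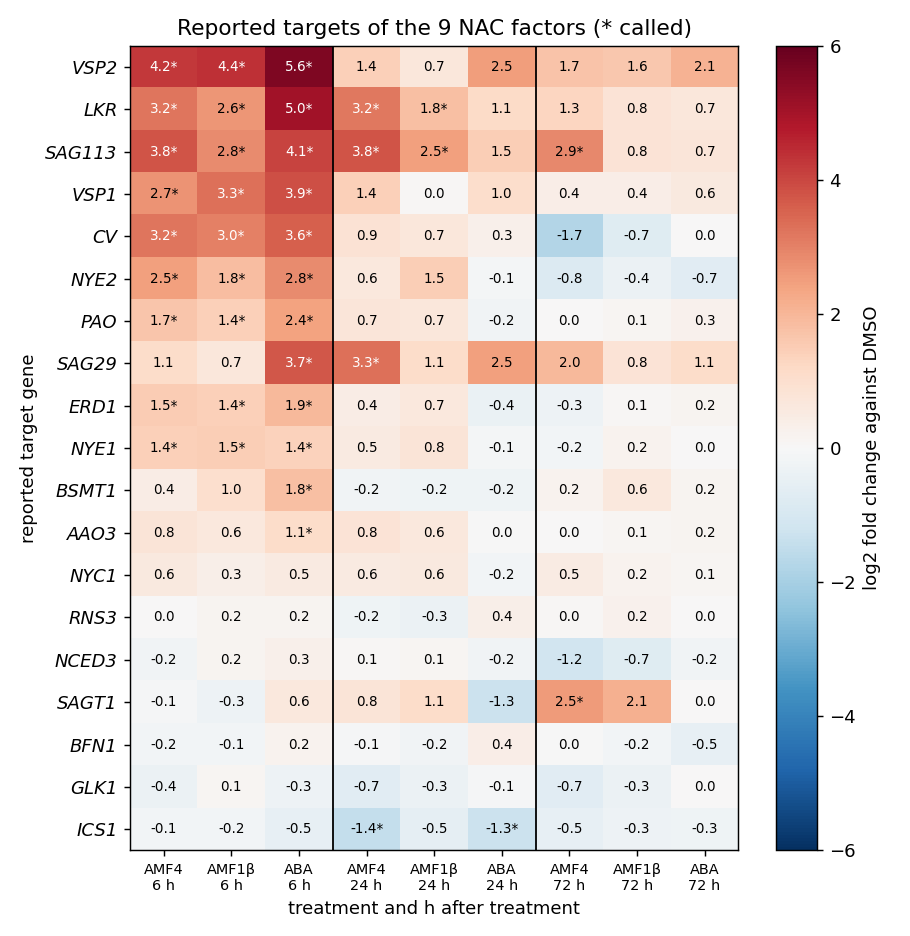
Log2 fold change (FPKM + 1) against DMSO of the 19 downstream genes that were tested, by time and compound, as a colour scale with an asterisk on each call. SAG113 has an asterisk in the AMF4 column at 6, 24 and 72 h, in the AMF1β column at 6 and 24 h and in the ABA column at 6 h.

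Of 13 regulators known to act upstream of the members, 12 were tested, and 3 were called higher with AMF4, 2 with AMF1β and 1 with ABA at 6 h, beside 4.21%, 2.69% and 3.71% of all genes. ABF3, a bZIP factor of ABA-responsive transcription, rose with each compound (1.97 ± 0.23 with AMF4, 1.55 ± 0.23 with AMF1β and 1.59 ± 0.23 with ABA). MYC2, the jasmonate-response factor that binds the NAC019 and NAC055 promoters, was called with AMF1β (1.23 ± 0.26, adjusted p = 0.00241), ABI5 with AMF4 (1.21 ± 0.14) and ABF2 with AMF4 (1.16 ± 0.20). The medians of the list were 0.66, 0.57 and 0.42 with AMF4, AMF1β and ABA, beside 0.09, 0.05 and 0.01 over all genes. This list too was chosen with earlier results known.

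Of the 6 NAC genes with a miR164 site, 3 were tested, and NAC092 and NAC1 were called higher with all 3 compounds at 6 h. NAC1, known from lateral root formation, changed by 1.71 ± 0.28 with AMF4, 1.59 ± 0.28 with AMF1β and 1.77 ± 0.28 with ABA. The third, NAC079, was not called. Among the 104 other NAC genes, 44 were tested, and 3 were called higher with AMF4, 4 with AMF1β and 3 with ABA at 6 h, and none lower. These few calls stand beside 4.21%, 2.69% and 3.71% of all genes, and nothing is read from them about the family. NAC047, a gene linked to ethylene-driven leaf movement, had 3.64 to 5.40 FPKM with AMF4, 2.20 to 5.17 with AMF1β and 4.30 to 14.2 with ABA, against 0.374 to 0.739 with DMSO, a log2 fold change of 1.81 ± 0.28, 1.46 ± 0.28 and 2.48 ± 0.28 in that order. NAC046, a regulator of chlorophyll breakdown, changed by 1.53 ± 0.33 with AMF4, 1.40 ± 0.33 with AMF1β and 1.51 ± 0.33 with ABA. The fourth, listed as NAM, was called with AMF1β (1.00 ± 0.32). At 24 h the counts were 1 higher and 2 lower with AMF4, 1 and 1 with AMF1β, and 0 and 3 with ABA, beside the shares of all genes at 24 h given above for the downstream genes.

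At 72 h, 2 other NAC genes were called higher and 1 lower with AMF4, beside 1.12% and 0.427% of all genes, and they are named after their values were seen. NAC13, a membrane-bound factor of the mitochondrial stress response, had 74.4 to 75.9 FPKM in the AMF4 libraries, against 19.6 FPKM in the DMSO library, a log2 fold change of 1.89 ± 0.38 (adjusted p = 0.0136), and it was higher with AMF4 than with ABA (2.0 ± 0.38, adjusted p = 0.0159). NAC083 changed by 1.08 ± 0.25 and NAC003 by −1.40 ± 0.33. NAC13 and NAC032 were thus both called with AMF4 against DMSO and against ABA at 72 h.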

How the data were processed

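Messenger RNA was measured by RNA-seq in 29 leaf libraries. The values used are FPKM as deposited by the authors, who aligned reads to TAIR10 with TopHat2 and estimated FPKM with Cufflinks, per the labels' processing notes and the study's methods. The strand setting, the handling of reads that map to several places and the versions of both tools were not given in these sources. The labels call one compound AMF1, which the series' design text gives as AMF1beta. FPKM keep no read totals. The commonest ratio between libraries of low values, shared by 4.15% to 15.1% of such genes, put 26 libraries at 0.566 to 1.97 times the median depth and gave no value for 3.

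Log2(FPKM + 1) of the 18521 genes with at least 1 FPKM in at least 2 libraries was fitted with limma 3.58.1 in R 4.3.3, with 1 mean for each of the 12 groups and a trend in the prior variance (17 residual and 3.82 prior degrees of freedom). Two-sided p-values were adjusted by Benjamini-Hochberg over all tested genes in each contrast, and intervals are at 95%. The fit was tested on simulated data. Named genes were the 9 members, the 3 genes most like each, and of each list at most 4 with the largest change among those called at 6 h. The members and lists were chosen with earlier results of these data known. Alternatives were the pseudocount, the filter, 2 scalings, the variance trend, a replicate block, libraries of 1 time only, a pooled control and each library left out. Coordinates and sequences are from RefSeq TAIR10.1, and 32817 of 33559 identifiers matched it.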

Additional observations from a re-analysis of the deposited data

Results flagged for a closer look

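The values given here are those for which the effect of a compound differed between 24 and 6 h, by a limma test of the difference itself. For ABA against DMSO the log2 effect at 24 h minus that at 6 h was −3.11 (adjusted p = 0.000279) in RD26, −3.18 (adjusted p = 0.0012) in NAC019, −2.44 (adjusted p = 0.00302) in NAP, −3.31 (adjusted p = 0.00639) in NAC092 and −1.36 (adjusted p = 0.0478) in NAC032. In the first 4 the ABA libraries were above all DMSO libraries at 6 h and within or below the DMSO range at 24 h, or, for NAC019, overlapped it. From 6 to 24 h the ABA mean did not fall in NAP (35.7 to 42.6 FPKM) or NAC032 (13.7 to 17.5). Their DMSO mean rose, from 7.96 to 58.8 FPKM in NAP and from 5.89 to 21.0 in NAC032. In RD26, NAC019 and NAC092 the ABA mean fell. The values of NAC092 and NAC032 were not called with DMSO replicate 3 as the only 6 h control (−3.10 and −1.78). For AMF4 against ABA the difference was 2.19 (adjusted p = 0.0082) in RD26 and 2.25 (adjusted p = 0.0275) in NAC019. For AMF1β against ABA it was 1.61 (adjusted p = 0.0471) in RD26, 2.44 (adjusted p = 0.0186) in NAC019 and 1.84 (adjusted p = 0.0436) in NAP. The 2 comparisons share the ABA libraries, so their values are not independent of each other. The RD26 difference between AMF4 and ABA was lost without AMF4 replicate 1 of 24 h (adjusted p = 0.0791), those of NAC019 under 7 of 39 alternatives with AMF4 (adjusted p up to 0.145) and 6 of 39 with AMF1β (up to 0.0728), and those between AMF1β and ABA under 22 of 39 in RD26 (up to 0.161) and 18 of 39 in NAP (up to 0.165).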

How the results depend on the processing

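Of the 46 member calls, 20 held in every one of 41 settings that gave them a value, 26 were lost in at least 1, and none changed direction. Counts of called members against DMSO were 17 of 27 at 6 h, with 15 to 17 when single libraries were left out, and 5 of 27 at 24 h, with 3 to 6. At 72 h the count was 1 of 27. It was 2 with the replicate number as a block, 0 with libraries of 72 h only, 3 when DMSO libraries of 24 and 72 h served together as the control, and 0 to 1 with single libraries left out. Between compounds the counts were 0 at 6 h (0 to 1 with libraries left out), 8 at 24 h (5 without the filter on low values, and 3 to 9 with libraries left out) and 1 at 72 h (3 with the replicate block, 0 with libraries of that time only, and 0 to 5 with libraries left out). The 24 against 6 h differences gave 10 calls, 6 without the filter, and 5 to 15 with libraries left out. The causes were not tested. Without the single DMSO or ABA library of 72 h, comparisons that need it gave no value, and fits within 1 time give no difference between times. Quantile normalization moved the median change of all genes by at most 0.10, with 15 calls at 6 h.

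Replicate numbers recur in all groups but did not pair the libraries: deviations from group means correlated with a median r of −0.00429 over 111 same-numbered pairs (from −0.292 to 0.398), and 9 of 27 libraries correlated best with their own number. With the replicate block the counts were 17 at 6 h and 5 at 24 h against DMSO, 8 between compounds at 24 h and 11 for the 24 against 6 h differences. The block added calls for NAC102 with AMF4 at 72 h against DMSO (1.35, adjusted p = 0.0492) and ABA (1.55, adjusted p = 0.0347), ATAF2 with AMF4 against ABA at 72 h (1.47, adjusted p = 0.0385) and NAC092 with AMF1β against ABA, 24 against 6 h (2.56, adjusted p = 0.0377). At 72 h 1 library each stands for DMSO and ABA.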
